A study of Linum usitatissimum with 11 samples.

Results

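A set of 145 flax transcripts was far more abundant in the inner stem of lbf1 mutant plants than in that of wild-type plants. The set was selected on these same measurements. A gene model entered it when its mean log2 level over the 6 lbf1 plants exceeded its mean over the 3 wild-type (wt) plants by at least 2.5, and when the lowest lbf1 plant still lay above the highest wt plant. Eligible gene models were those with a value on all 11 arrays, 20497 of the 43408 on the array, so the members make up 0.707% of what could be chosen. Because the rule used the contrast between the genotypes, that contrast is described here with values and carries no test. The rule also bears on the spread among the mutant plants, through the separation, and it averaged the repeat arrays. It did not use the order of the mutant plants or the numbering of the gene models.

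All plants were flax (Linum usitatissimum) of the cultivar Diane, grown in the field and sampled at the vegetative stage. RNA came from the stem tissue left inside after peeling. The wt group held 3 plants on 4 arrays, because wt plant 3 was hybridised a second time. The lbf1 group held 6 plants of an EMS mutant family on 7 arrays, because lbf1 plant 1 was hybridised a second time, and the labels name no treatment of the plants. Both groups shared cultivar, field and stage. The labels carry lbf in place of lbf1 in the titles of mutant plants 5 and 6, with the same genotype label as the others. EMS, ethyl methanesulfonate, is a chemical mutagen that leaves point mutations across the whole genome, so a family selected after EMS can carry mutations besides the one it is named for. The labels used here say nothing of backcrossing or of how the 6 plants are related.

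In the flax stem, the outer tissues hold bast fibres, whose thick walls are rich in cellulose and poor in lignin. The woody core inside holds xylem, whose vessels and fibres normally carry lignin, a phenolic polymer that stiffens cell walls and is made from phenylalanine. Peeling takes the bast fibres away with the outer tissues, so the measurements concern mainly the core. No table of gene names was used here, so the members are given by identifier, with no name or role, and the labelled tissue could not be checked against marker genes. In bulk tissue such as this, more cells of a type and more RNA per cell cannot be told apart.

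Levels are the authors' values: log2 of the net brightness of a spot, with 1 constant per array that brings every array to a median of 9.02. Wild-type arrays were dimmer, with an upper quartile of net signal of 317 to 732.5 units against 650 to 920 units on lbf1 arrays. Wild-type plant 3 stood apart, since its first array had the lowest signal of all (317 units), its second array the highest among the wt arrays (732.5 units), and no other plant shared its slide. Only slide 1 held both genotypes, with wt plants 1 and 2 and both arrays of lbf1 plant 1.

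The members were mostly dim in the wild type and bright in the mutant. Their median level was 7.88, 7.98 and 7.93 in wt plants 1 to 3, and 11.7, 11.4, 11.6, 11.4, 11.8 and 11.3 in lbf1 plants 1 to 6. No lbf1 plant came near a wt plant in this median, and the plants of each genotype differed little among themselves. Ranked among the 20497 gene models, the median member stood at percentile 20.5, 20.8 and 21.1 in the 3 wt plants and between percentile 81.8 and 86.8 in the lbf1 plants. The wt mean lay below 9.02 for 113 of the 145 members, whereas 43.0% of all gene models lay there. A rule on the difference favours low wt and high lbf1 levels, so these positions follow in part from the choice. The lbf1 mean lay above 9.02 for every member, and reached 12 or more for 55 of them.

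**Figure D1:**
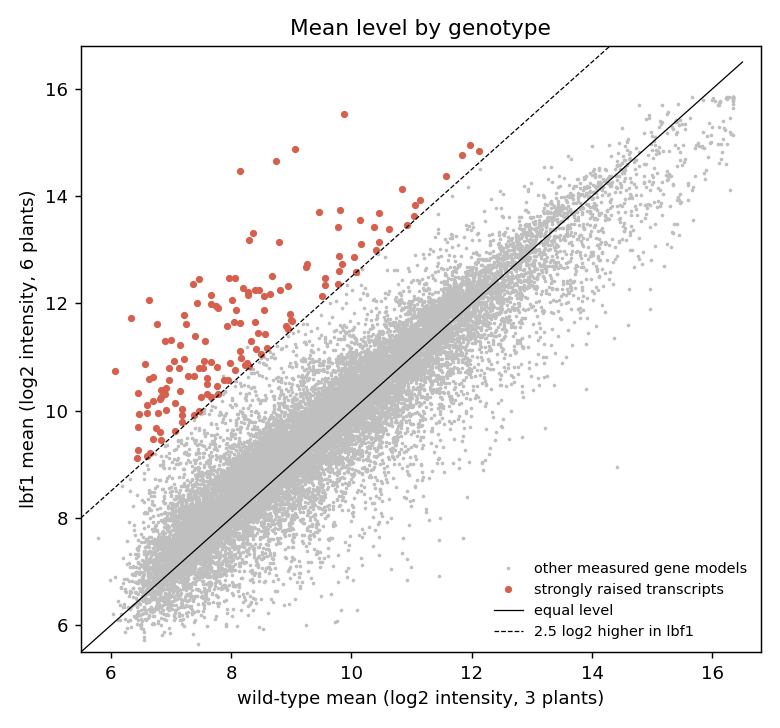
Mean log2 level of each of the 20497 gene models in 3 wt plants (horizontal axis) and 6 lbf1 plants (vertical axis). The 145 members (red) lie above the dashed line that marks a difference of 2.5, most of them at wt means under 9.02, and the black line marks equal levels.

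The difference between the genotype means ran from 2.52 to 6.33 log2 over the members, with a median of 3.26, equal to 5.72-fold to 80.6-fold with a median of 9.58-fold. The median difference over all eligible gene models was 0.18. A difference of at least 3 was reached by 86 members, of at least 4 by 29, of at least 5 by 6, and of at least 6 by 1. The members thus crowd near the threshold, with a long tail of very strong ones. Complete separation of the plants in this direction, without any condition on size, held for 28.2% of all eligible gene models, so on its own it is common in these arrays. Of 148 gene models past 2.5, only 3 failed the separation.

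**Figure D2:**
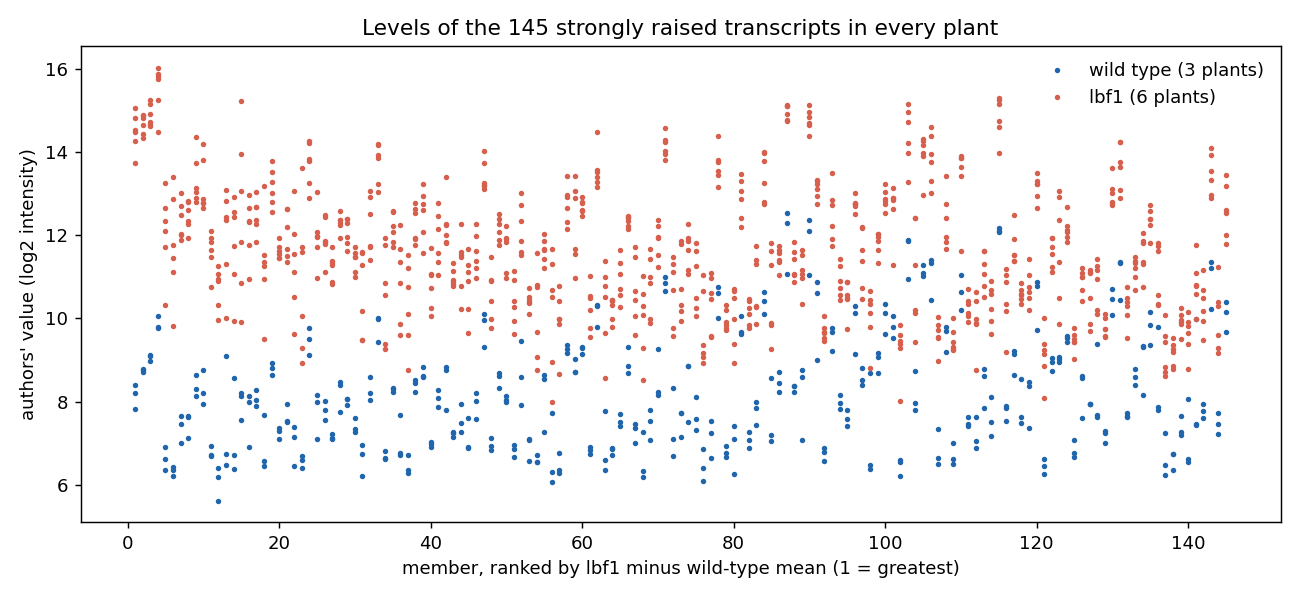
Log2 level of each of the 145 members in every plant, with members ordered from the greatest to the smallest difference between genotypes. Blue points are the 3 wt plants and red points the 6 lbf1 plants. The red points of a member never fall below its blue ones, as the rule requires, but their vertical spread differs widely from member to member.

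The strongest member was Lus10000453. Its level was 8.21, 8.39 and 7.82 in the wt plants and 14.26, 13.73, 14.52, 14.82, 14.47 and 15.05 in the lbf1 plants. Every lbf1 plant lay more than 5 log2 units above every wt plant. The means were 8.14 ± 0.29 (SD, n = 3) and 14.48 ± 0.46 (SD, n = 6), a difference of 6.33 or 80.6-fold. In scanner units its net signal was 155 to 283 on the 4 wt arrays and 13368 to 36782 on the 7 lbf1 arrays. The ranges are far apart.

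Lus10016323 and Lus10002741 behaved alike, with little spread in either genotype. Lus10016323 read 8.75, 8.71 and 8.77 in the wt plants and 14.42, 14.82, 14.32, 14.64, 14.86 and 14.89 in the lbf1 plants, a difference of 5.91 or 60.3-fold. Lus10002741 read 8.97, 9.11 and 9.10 in the wt plants and 14.72, 14.66, 14.62, 14.90, 15.24 and 15.14 in the lbf1 plants, a difference of 5.82 or 56.7-fold. Their gaps between the lowest lbf1 plant and the highest wt plant, 5.55 and 5.52, were the widest of the set together with the 5.34 of Lus10000453.

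Lus10031759 was the brightest member in the mutant. It read 9.78, 10.04 and 9.79 in the wt plants and 15.82, 16.02, 15.75, 14.49, 15.24 and 15.88 in the lbf1 plants, a difference of at least 5.66. At least 50% of the pixels of its spot were saturated on 4 of the 7 lbf1 arrays. Its levels on those arrays, its lbf1 mean and the difference are thus minimum values. It is the only member with a saturated spot.

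The next members by size varied more among the mutants. Lus10007270 read 6.63, 6.90 and 6.36 in the wt plants and 13.26, 11.72, 12.33, 12.10, 12.65 and 10.32 in the lbf1 plants, with plant 6 lowest. Lus10005395 read 6.36, 6.43 and 6.22 in the wt plants and 9.80, 12.87, 11.10, 11.46, 11.76 and 13.40 in the lbf1 plants, with plant 6 highest. The differences were 5.43 and 5.39, so members of the same size can order the same mutant plants in opposite ways.

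**Figure D3:**
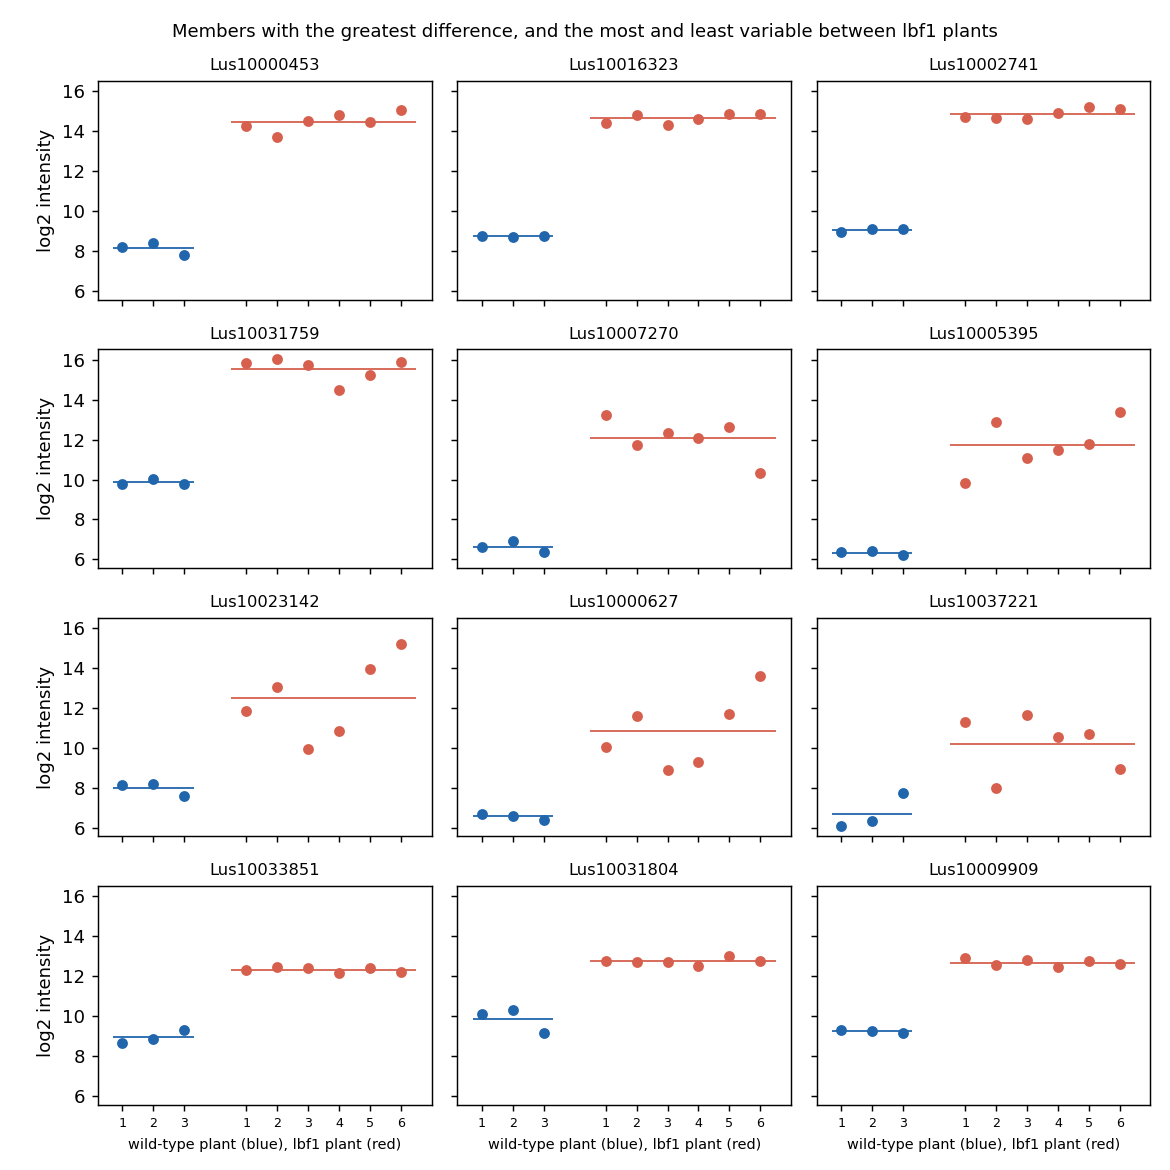
Log2 level in every plant (blue, wt; red, lbf1) for the members with the greatest differences and for the most and least variable between lbf1 plants. Horizontal lines are group means. Lus10016323 and Lus10002741 form tight groups at each level, whereas the lbf1 plants of Lus10023142 spread from 9.92 to 15.21.

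Members began from very different wt levels. A wt mean under 7.5 was found in 53 members, from 7.5 to 9 in 58, and of 9 or more in 34. The median difference of these classes was 3.48, 3.29 and 2.86, and the median lbf1 mean was 10.4, 11.6 and 13.4. The class edges were chosen after the values were seen.

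The members brightest in the wild type were Lus10030945, Lus10024201 and Lus10009911. Lus10030945 read 12.09, 12.17 and 12.08 in the wt plants and 15.30, 14.60, 15.15, 15.25, 13.98 and 14.74 in the lbf1 plants. Lus10024201 read 12.30, 12.53 and 11.07 against 15.11, 15.12, 14.91, 14.76, 14.74 and 15.09. Lus10009911 read 12.36, 12.09 and 11.05 against 14.95, 15.12, 14.84, 14.70, 14.63 and 14.39. All were already well expressed in the wild type and differed by 2.72, 2.99 and 2.94. In Lus10024201 and Lus10009911, wt plant 3 was more than 1 unit below the other wt plants.

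The members dimmest in the wild type were Lus10015350, Lus10005395 and Lus10012909. Lus10015350 read 6.18, 6.41 and 5.62 in the wt plants and 11.07, 10.95, 10.31, 9.95, 11.24 and 10.90 in the lbf1 plants, a difference of 4.67. Lus10012909 read 6.63, 6.45 and 6.25 against 9.997, 8.85, 9.24, 8.10, 9.39 and 9.15, a difference of 2.68. For these members the size of the difference changed with the processing. With arrays scaled to the 75th percentile, the difference of Lus10015350 was 4.43 after subtraction of the local background from the spot median and 3.12 after normexp background correction of the spot mean with an offset of 50. That of Lus10012909 was 2.44 and 1.80 in the same settings. The parts of correction, offset and spot statistic were not separated.

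The wt levels were nevertheless mostly measurable. A spot counted as above background when its net signal exceeded 2.6 SDs of the local background. By that measure 123 of 145 members were above background on all 4 wt arrays, 19 on 3 of them, and 3 on 2 of them. The 3 were Lus10037221, Lus10026906 and Lus10016494. All 7 lbf1 arrays were above background for 139 members. No member was below background on every wt array. For 22 members at least 1 wt array was not above background, so their wt means hold values that are not reliably measured. The requirement of a value on every array bears on this: 3243 gene models had a value on all 7 lbf1 arrays and lacked one on at least 1 wt array, and 637 of them lacked one on every wt array. Such transcripts could not become members however bright they were in the mutant.

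At the threshold the division is arbitrary. The members just inside were Lus10024061, with a difference of 2.52 (10.16, 10.39 and 9.67 in wt, 13.44, 12.52, 12.60, 11.999, 13.19 and 11.79 in lbf1), and Lus10006886, also at 2.52 (7.47, 7.72 and 7.23 in wt, 9.59, 10.40, 9.17, 9.27, 10.30 and 11.24 in lbf1). Just outside lay Lus10033314, at 2.49 (7.77, 7.92 and 8.49 in wt, 10.56, 10.88, 9.41, 10.25, 10.78 and 11.45 in lbf1), and Lus10011516, at 2.48 (7.53, 7.69 and 7.43 in wt, 10.31, 10.29, 9.57, 9.43, 10.95 and 9.61 in lbf1). These 4 differ by far less than the spread between plants.

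The gap between the lowest lbf1 plant and the highest wt plant ranged from 0.002 to 5.55 log2, with a median of 2.14. It was at least 1 for 133 members, but the rule itself required a gap above 0. Over all gene models the median gap was -0.33 and the upper quartile 0.05. The range among the lbf1 plants was larger than this gap for 39 members. The narrowest gap was that of Lus10015843, which read 7.46, 7.44 and 9.99 in the wt plants and 11.08, 10.79, 10.59, 10.78, 11.77 and 9.99 in the lbf1 plants. Its separation hung on wt plant 3, whose repeat arrays read 9.21 and 10.77.

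In wt plant 3 also lay the high levels of the 3 gene models that passed 2.5 and failed the separation. Lus10004587 reached 9.82 in wt plant 3 against a lowest lbf1 level of 9.26, Lus10012957 reached 9.81 against 9.49, and Lus10020939 reached 9.78 against 9.74. In wt plants 1 and 2 these gene models stayed between 6.34 and 7.52. Taking arrays singly, all 7 lbf1 arrays lay above all 4 wt arrays for 139 members. The other 6 were Lus10015279, Lus10015843, Lus10020264, Lus10024069, Lus10024291 and Lus10037221. The rule already fixed the separation of plant averages, which held for 28.2% of all eligible gene models, so nothing is read from this count. The share over all gene models was not taken array by array.

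Wild-type plant 3 differed from the other wt plants in both directions among the members. It lay at least 1 above both other wt plants for 13 members (8.97%, against 2.19% of all gene models) and at least 1 below both for 11 (7.59%, against 0.746%). Wild-type plants 1 and 2 were at least 1 apart for 2 members (1.38%, against 1.04% of all gene models). Lus10015279 shows the pattern, with 6.48 and 6.74 in wt plants 1 and 2 and 8.17 and 10.04 on the repeat arrays of wt plant 3. The parts of slide, brightness, plant and the members' low wt level in this were not tested.

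The repeat arrays show how closely the levels of a plant were measured again on the same slide. Both arrays of each pair shared a slide, so differences between slides are not part of these values. In lbf1 plant 1 the absolute difference between repeat arrays had a median of 0.0637 over the members, beside 0.0759 over all gene models, and no member differed by 1 or more. In wt plant 3 the median was 0.374, beside 0.341 over all gene models, and 19 members differed by 1 or more (13.1%, against 7.02% of all gene models). There the second array minus the first had a median of -0.03 over the members and 0.27 over all gene models. The 0.341 thus holds a general shift between the arrays that is absent from the members' median. The mutant pair thus repeated closely and the wild-type pair did not. The members were mostly dim in wt plant 3, and gene models of similar level were not compared apart. The greatest difference of a member was 2.40 between the arrays of wt plant 3 and 0.68 between those of lbf1 plant 1.

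**Figure D4:**
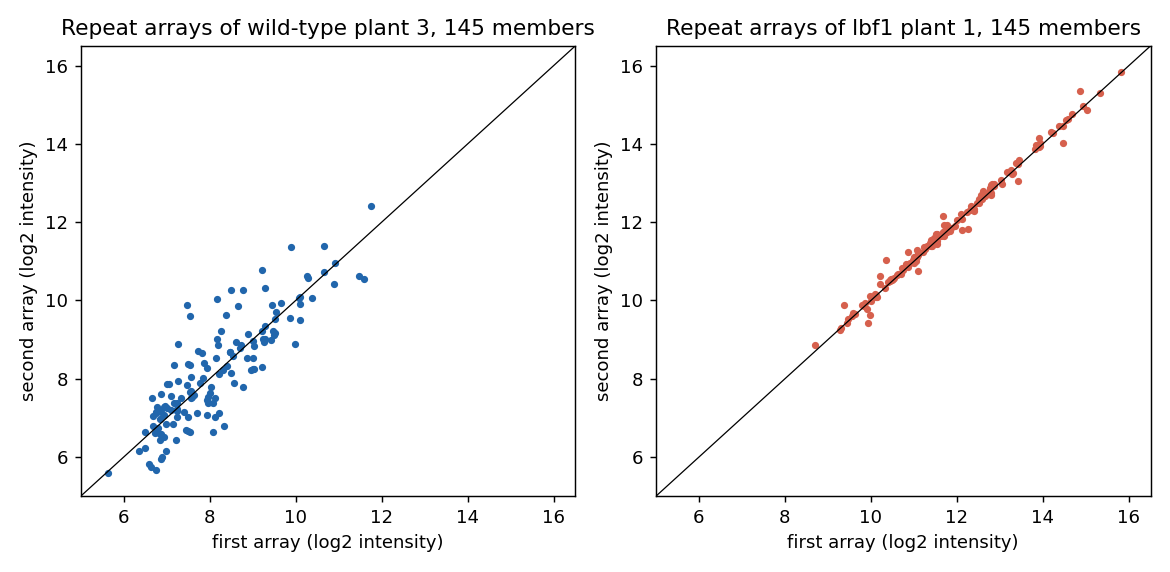
Log2 level of each member on the first and the second array of wt plant 3 and of lbf1 plant 1. Points of lbf1 plant 1 follow the line of equal levels with a median absolute difference of 0.0637, and points of wt plant 3 scatter around it with 0.374.

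Within slide 1, lbf1 plant 1 was compared with wt plants 1 and 2 alone. The median difference over the members was 3.46, with a range of 1.81 to 6.49, and 131 of 145 reached 2.5. Over all gene models 259 reached it there. These arrays were among those that chose the members, and the separation rule fixes the sign of each of these differences. Without slide 1, which left wt plant 3 against lbf1 plants 2 to 6, the median was 3.31.

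The second array of wt plant 3 (732.5 units) was brighter than that of lbf1 plant 2 (650 units), a pair of arrays picked after the data were seen. Between them the members had a median difference of 3.17, with lbf1 plant 2 higher for 142 of 145 and at least 2.5 higher for 108. Over all gene models the median was -0.03, and 47.6% were higher. Both arrays were among those that chose the members, and the rule already placed lbf1 plant 2 above the mean of the wt plant 3 arrays for each of them, so the count of members is no evidence on brightness. The 3 members that were not higher were Lus10015279, Lus10020264 and Lus10024069, by -0.03, -0.09 and -0.07.

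A fit over all probes with limma, on scanner values after normexp and quantile normalization, tested 28267 probes and called 16.7% of them higher in lbf1 at a Benjamini-Hochberg adjusted p under 0.05. All 145 members were among the tested and the called, but the rule used the same contrast and nothing is read from this. Their fitted differences ran from 1.29 to 5.95 with a median of 2.75, and the median standard error was 0.295. With the brightness of each plant as a further term, the median difference was 2.47 with a median standard error of 0.701, and 144 of 145 differences stayed positive. The number of members called then dropped to 24. Over all probes that fit called 100 in both directions. It used the mean brightness of the arrays of a plant, by which every wt plant was dimmer than every lbf1 plant. Brightness and genotype can thus be told apart only by extending the fitted effect of brightness beyond the plants of each genotype.

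The 6 lbf1 plants often differed from each other in the level of these transcripts. The SD between lbf1 plants had a median of 0.509 log2 over the members, beside 0.229 over all gene models. It was at least 0.5 for 75 members (51.7%, against 12.1% of all gene models) and at least 1 for 17 (11.7%, against 1.26%). Between the wt plants the median SD was 0.291 over the members and 0.179 over all gene models. No test is attached to these medians, since the level in the mutant and the separation of the plants were part of the choice.

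The most even members were Lus10033851, Lus10031804 and Lus10009909. Lus10033851 read 12.34, 12.46, 12.40, 12.14, 12.42 and 12.22 in the lbf1 plants, an SD of 0.13, and 8.68, 8.86 and 9.32 in the wt plants. Lus10031804 read 12.77, 12.71, 12.74, 12.50, 13.01 and 12.74 in lbf1 and 10.13, 10.29 and 9.14 in wt. Lus10009909 read 12.92, 12.58, 12.80, 12.46, 12.77 and 12.59 in lbf1 and 9.30, 9.28 and 9.15 in wt. In these transcripts the mutant plants were nearly interchangeable, at differences of 3.38, 2.89 and 3.44 from the wild type.

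The most uneven were Lus10023142, Lus10000627 and Lus10037221. Lus10023142 read 11.84, 13.06, 9.92, 10.84, 13.96 and 15.21 in the lbf1 plants and 8.12, 8.20 and 7.57 in the wt plants. Lus10000627 read 10.04, 11.59, 8.91, 9.30, 11.71 and 13.62 in lbf1 and 6.69, 6.60 and 6.41 in wt. Both put the mutant plants in the same order, with plant 6 highest and plant 3 lowest, at SDs of 1.98 and 1.77. Lus10037221 went nearly the other way, with 11.30, 7.996, 11.66, 10.52, 10.67 and 8.95 in lbf1, plant 3 highest and plant 2 lowest, and 6.06, 6.31 and 7.72 in wt.

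A similar opposition was the leading pattern of deviations over the set, though not every member had it. A principal component analysis of the members' deviations from their lbf1 means gave a first component with 55.5% of the variance. A separate analysis of all gene models gave a first component with 44.8%, whose plant weights were not taken. The members' first component set plants 2 and 6, with weights of 0.35 and 0.66, against plants 1 and 3, with weights of -0.41 and -0.48. Plants 4 and 5 had weights of -0.20 and 0.07. The contrast of plants 2 and 6 with plants 1 and 3 was then described because of this component, so it is a pattern chosen from the data.

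The mean of plants 2 and 6 was at least 1 log2 above that of plants 1 and 3 for 15 members (10.3%, against 1.76% of all gene models) and at least 1 below it for 27 (18.6%, against 3.94%). A cut of fixed size is passed more often where the spread is larger. The median SD between lbf1 plants was 0.509 over the members and 0.229 over all gene models, so nothing is read from these shares. Counts by the order of the plants do not use a cut. Plants 2 and 6 both lay below plants 1 and 3 for 66 members (45.5%, against 30.0%) and both above for 31 (21.4%, against 22.7%). Of the 17 members with an SD of at least 1, 9 had both plants above and 7 both below. Members with a large SD weigh heavily in the component that chose this contrast. The share among all gene models with such an SD was not taken, so nothing is read from these counts. Lus10005397 had both plants above, with 9.63, 12.02, 10.52, 11.11, 11.55 and 13.06 in the lbf1 plants. Lus10042339 had both below, with 11.75, 9.27, 11.92, 10.85, 10.55 and 9.39. Plants 2 and 6 also had the dimmest mutant arrays, at 650 and 746 units, and plant 6 was alone on its slide. The parts of these in the pattern were not tested.

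**Figure D5:**
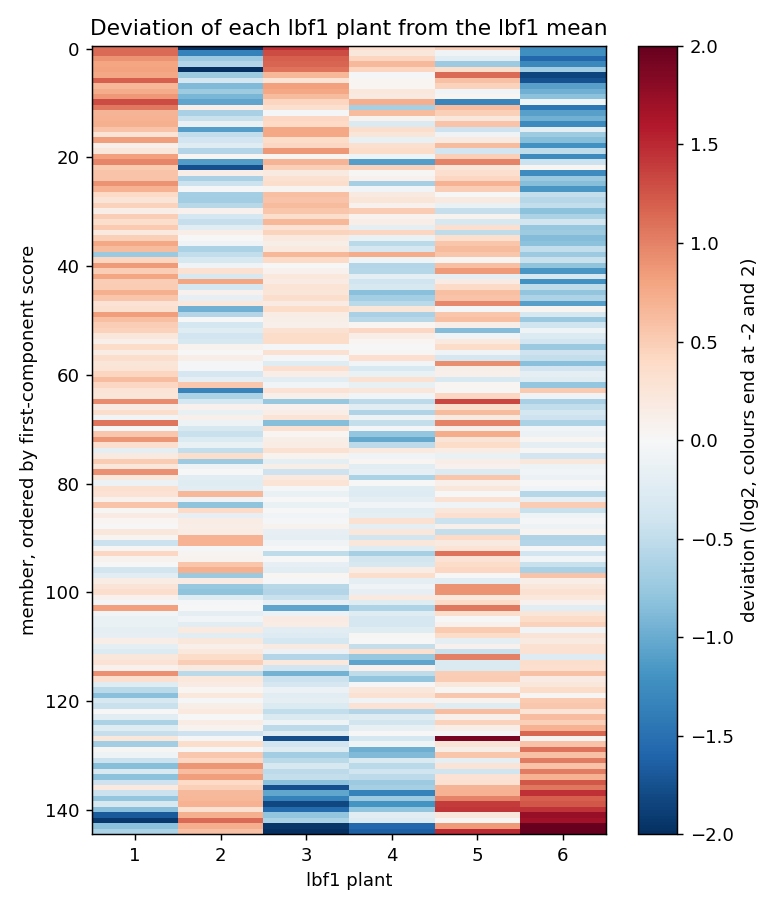
Deviation of each lbf1 plant from the mean of the 6 lbf1 plants (log2, colour scale capped at its ends) for the 145 members, ordered by their score on the first component. Plants 2 and 6 are red at one end and blue at the other, and plants 1 and 3 show the reverse.

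Each of the 6 lbf1 plants was the highest for some members and the lowest for others. Plant 1 was highest for 38 members (26.2%, against 25.3% of all gene models), plant 2 for 15 (10.3%, against 11.6%) and plant 3 for 25 (17.2%, against 13.7%). Plant 4 was highest for 4 (2.76%, against 8.14%), plant 5 for 34 (23.4%, against 16.2%) and plant 6 for 29 (20%, against 25.2%). The shares of plants 1 and 2 were thus near those of all gene models. Those of plants 4 and 6 were lower than over all gene models, and those of plants 3 and 5 were higher. Plant 1 was lowest for 12 members (8.28%, against 18.4%), plant 2 for 26 (17.9%, against 5132 of the 20497) and plant 3 for 22 (15.2%, against 12.2%). Plant 4 was lowest for 29, against 2743 of the 20497, plant 5 for 7 (4.83%, against 2456 of the 20497) and plant 6 for 49 (33.8%, against 3897 of the 20497).

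The plants titled lbf, 5 and 6, were set against those titled lbf1, 1 to 4. The mean of plants 5 and 6 minus that of plants 1 to 4 had a median of -0.01 over the members and ranged from -1.51 to 3.17. Both lay above all of plants 1 to 4 for 19 members (13.1%, against 14.7% of all gene models) and below for 8 (5.52%, against 6.71%). The largest excess of plants 5 and 6 was in Lus10023142 and Lus10000627, at 3.17 and 2.70. The largest deficits were in Lus10020437, at -1.51, and Lus10012741, at -1.35.

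Lus10020437 read 8.71, 8.71 and 9.02 in the wt plants and 13.05, 11.67, 13.42, 12.90, 11.54 and 10.97 in the lbf1 plants. Lus10012741 read 6.36, 6.29 and 6.71 in wt and 11.22, 9.61, 11.53, 10.76, 10.10 and 8.75 in lbf1. Plants 5 and 6 were the lowest of the 6 for Lus10020437, with plant 2 next. For Lus10012741 plant 6 was lowest, followed by plants 2 and 5.

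Several members were neighbours in the numbering of gene models. Within 1 number of a member lay 130 measured gene models, of which 11 (8.46%) were members themselves, beside 0.707% of all eligible gene models. Within 2 numbers the share was 7.42% of 256, and within 5 it was 4.03% of 620. No genome annotation was used here to say whether consecutive numbers lie side by side, and hybridisation of similar transcripts to each other's probes was not tested.

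The strongest run was Lus10031590, Lus10031591 and Lus10031592. Lus10031590 read 7.79, 8.01 and 7.56 in the wt plants and 12.49, 11.11, 11.79, 11.86, 11.84 and 12.42 in the lbf1 plants. Lus10031591 read 7.99, 8.04 and 8.13 in wt and 11.92, 10.96, 12.22, 11.90, 11.84 and 11.08 in lbf1. Lus10031592 read 8.22, 8.15 and 9.27 in wt and 12.37, 11.52, 12.22, 11.94, 11.95 and 11.24 in lbf1. The last 2 of the run move together, low in plants 2 and 6, whereas Lus10031590 was high in plant 6.

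A further pair was Lus10041683 and Lus10041684. Lus10041683 read 7.91, 9.45 and 8.58 in wt and 13.01, 11.58, 12.33, 11.53, 12.73 and 11.86 in lbf1, a difference of 3.52. Lus10041684 read 11.32, 11.40 and 10.44 in wt and 14.61, 13.76, 13.95, 13.30, 14.39 and 13.01 in lbf1, a difference of 2.79. The second was thus far brighter in both genotypes. The other consecutive pairs were Lus10002355 with Lus10002356, Lus10039511 with Lus10039512, and Lus10024060 with Lus10024061, at mean differences of 2.67, 2.66 and 2.55.

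Some members with distant numbers had nearly the same profile over the lbf1 plants. Likeness was measured as the root mean square difference of the deviations from the lbf1 mean, over the 60 members whose lbf1 range was at least 1.5, and its median over the 1770 pairs was 0.925. The most alike pair was Lus10024061 and Lus10041684, at 0.06. Both belong to consecutive pairs named above. It was 0.07 for Lus10027560 and Lus10039317, with 11.06, 10.05, 10.24, 10.74, 11.70 and 11.04 for the first and 10.93, 9.77, 9.99, 10.41, 11.47 and 10.89 for the second. Lus10005951 and Lus10007845 followed at 0.07, and Lus10011191 and Lus10018484 at 0.08. These pairs were picked for their likeness, so it carries no test.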

How the data were processed

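Per the file headers, the 11 deposited scanner tables are GenePix Pro 6.0.1.22 output with a gain of 450 on every array. Per the file headers, these deposited tables hold the intensity of each spot as quantified by GenePix on a linear scale, with no normalization. They also give, per the file headers, the percent of saturated pixels per spot, as deposited by the authors. The authors' deposited value table holds log2 values. On 9 arrays all of them equal, within 0.001, log2 of spot median minus local background plus 1 constant, as do 99.9888% on the second array of lbf1 plant 1 and 99.996% on that of lbf1 plant 2, with values missing at flagged spots. Each array had 45220 spots, with 1765 controls, and arrays give no counts, so their number limits precision. The design text in the labels names the comparison of genotypes.

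Members were found in the authors' values, with repeat arrays of a plant averaged first. For the limma 3.58.1 fit (R 4.3.3; lmFit and eBayes, no block), scanner means had normexp background correction (offset 50), controls were removed, and arrays were quantile normalized. A probe was tested if above background in at least 3 plants. Member summaries used pandas 2.3.3 and numpy 2.4.6. The fit was tested on simulated data. Alternatives changed scaling, background, arrays per plant, missing values, saturation, slide, block, threshold and plants left out.

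Named members are those with the 6 greatest differences, the 3 highest and lowest wt means, the 3 highest and lowest SDs between lbf1 plants, 2 on each side of the threshold, 2 each way for plants 5 and 6 against 1 to 4, and the 3 strongest consecutive pairs. Others were singled out after their values were seen. The members and lists were chosen with earlier results of these data known. Lists of gene names and cell type markers could not be matched to identifiers and were not used here. P-values set the difference against the spread between individual plants, which here also holds differences between slides and arrays. Plant numbers were not treated as pairing the genotypes. Correlations of deviations were 0.059, -0.093 and 0.083 for plants 1 to 3. Each sets 1 plant of a genotype against 1 of the other, so they cannot show that no pairing exists.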

Additional observations from a re-analysis of the deposited data

How the results depend on the processing

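Applied to other values, the rule kept 99 gene models after normexp and quantile normalization, 90 after normexp and scaling to the 75th percentile (median difference of the 145 members then 2.66), 112 after plain subtraction with that scaling, and 228 after normexp and scaling to spike-in probes. All of the 99, 90 and 112 were among the 145, as were 143 of the 228. The scalings moved the median of all gene models to -0.01, -0.07, -0.06 and 0.70, from 0.18 in the authors' values. Relative to that shift the members' median was 3.08 in the authors' values and 2.73 to 3.08 under these settings. A threshold of 2 gave 283 members and of 3 gave 86, and slide 1 alone gave 259. Leaving out each plant gave 139 to 184 members, the most without wt plant 3. The median difference of the 145 members then ran from 3.16 to 3.37. The replicate block over plants 1 to 3 gave 166 members, with a median of 3.27 over the 145 members. Over all probes it gave 4386 limma calls in place of 9114. Brightness as a term left 100 calls. Calls over all probes numbered 6565 to 9114 when each plant was left out. Of the called probes 4726 were higher and 4388 lower after quantile normalization, 3536 and 6080 after scaling to the 75th percentile, and 6108 and 2822 in the authors' values, from which the members were chosen. No member's difference turned negative under another scaling or background correction, and 1 did with brightness as a term. Where plants or slides were left out the rule itself fixes the sign. For single named gene models, 564 values moved by less than the spread between plants and 51 by more, with none reversed. Depth is limited by dim spots: 123 members were above background on all wt arrays, 126 at 2 SDs and 119 at 3 SDs.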
